A study of Rattus norvegicus with 6 samples.

Results

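Transcripts of 6 genes of rat mitochondrial DNA (mtDNA) are described here. The genes encode the cytochrome c oxidase subunits CO1, CO2 and CO3, the ATP synthase subunits ATP8 and ATP6, and cytochrome b, CYB. They are 6 of the 35 annotated mtDNA features and of the 32552 genes in the deposited count files. The files carry Ensembl IDs without gene names, so the names rest on position: the 13 mtDNA features longer than 200 bases, sorted by start, were named in the standard mammalian gene order, and places 3 to 7 and 13 were taken. The samples came from the striatum, a deep brain nucleus that serves movement and habit, of male Sprague-Dawley rats. There were 3 controls, numbered 1, 2 and 4 in their labels, that received 0.9% NaCl into the peritoneal cavity, and 3 Mn-exposed samples, numbered 13, 14 and 17, that received MnCl2 at 25 mg/kg during 15 days. The age of the rats is not given in the labels. Whether each sample is a separate rat is not stated in the labels, and p-values cover no more than the variation among these 6 samples. Mn is a trace metal that harms the basal ganglia at high exposure, and the study's title links this harm to mitochondrial dynamics. The question here is how the levels and the balance of these messages compare between exposed and control striatum.

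Mitochondria make most of the ATP of neurons by oxidative phosphorylation. CYB is the mtDNA-encoded core of complex III, which passes electrons from ubiquinol to cytochrome c. CO1, CO2 and CO3 form the catalytic core of complex IV, which hands those electrons to oxygen, and ATP6 and ATP8 belong to the membrane part of complex V, the ATP synthase, through which protons flow back. The other subunits of these complexes are encoded in the nucleus. The genes are read as long precursor RNAs that are cut mostly at the transfer RNAs between them, and the resulting messages receive a poly(A) tail. ATP8 and ATP6 overlap and stay together on 1 messenger RNA. Below, a message stands for the transcript counts of 1 gene, so ATP8 and ATP6 are counted apart.

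The positions are 1-based on the mitochondrial chromosome of Rnor_6.0, and all 6 genes are on the plus strand as a single exon. CO1 (ENSRNOG00000034234) spans 5323 to 6867, 1545 bases. CO2 (ENSRNOG00000030371) spans 7006 to 7689, 684 bases. ATP8 (ENSRNOG00000033299) spans 7758 to 7961, 204 bases, and ATP6 (ENSRNOG00000031979) spans 7919 to 8599, 681 bases. CO3 (ENSRNOG00000030700) spans 8599 to 9382, 784 bases. CYB (ENSRNOG00000031766) lies apart at 14136 to 15278, 1143 bases. The first 5 thus follow each other within a stretch that also holds short features of the size of transfer RNA genes. ATP8 and ATP6 share 43 bases, ATP6 and CO3 share 1, and CO1 shares 3 with a short minus-strand feature. The length of CO3 leaves 1 base over after division into codons, while the other 5 divide evenly, as genes that end in a full stop codon do. Several mitochondrial messenger RNAs gain the rest of their stop codon from the poly(A) tail.

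Between 21754379 and 32569760 reads were counted per library, of which 1584847 to 3237265 fell in the 6 genes. All 35 mtDNA features together took 13.9% to 16.59% of counts in controls and 8.639% to 13.76% in Mn-exposed samples. The 13 longer features held at least 99.7% of those mtDNA counts in every library. By their naming none of the 13 is a ribosomal RNA gene, so mtDNA counts here do not cover ribosomal RNA. The libraries did not divide fully by treatment on the first principal component without mtDNA features (1000 most variable genes, 44.7% of the variance). Control 1 (-24) and Mn-exposed 13 (-22.6) lay at one end and Mn-exposed 14 (34) and 17 (20.4) at the other. Control 2 (-6.3) and control 4 (-1.51) lay between, so only Mn-exposed 13 departed from a split by treatment.

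All 6 messages had lower fitted levels in Mn-exposed than in control striatum, by 23.4% (ATP8) to 31.1% (CO2), and none passed the test. Levels are CPM (a gene's counts relative to the library's scaled total) with TMM scaling, which adjusts library size for differences in composition. The test was edgeR's quasi-likelihood F-test over 15252 genes, and adjusted p-values (Benjamini-Hochberg) under 0.05 were called.

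CO1, which carries the oxygen-reducing site of complex IV, was the most abundant of the 6 by counts. It stood at 45170, 37190 and 41080 CPM in the controls (1, 2, 4) and at 36320, 21340 and 29060 with Mn (13, 14, 17), the order kept for the other messages. Every Mn-exposed sample was below every control, with Mn-exposed 13 only 2.34% under control 2. The edgeR log2 fold change was -0.51 (SE 0.25, adjusted p = 0.67).

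CO2, the subunit that takes electrons from cytochrome c, stood at 13550, 10810 and 12950 CPM in the controls and at 10190, 6436 and 9084 with Mn. Its groups were parted by the widest margin of the 6, 5.71% of the lowest control. The edgeR log2 fold change was -0.54 (SE 0.23, unadjusted p = 0.0528, adjusted p = 0.665).

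CO3, the third core subunit, stood at 22830, 17540 and 16760 CPM in the controls and at 16740, 10810 and 14150 with Mn. Mn-exposed 13 was 0.109% below control 4, less than the counting error of that gap (SD 0.228%), so these 2 libraries were level for CO3. The edgeR log2 fold change was -0.45 (SE 0.24, adjusted p = 0.676).

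ATP8, a short subunit of the membrane part of the ATP synthase, stood at 3734, 3096 and 2982 CPM in the controls and at 2890, 1974 and 2653 with Mn. The groups did not overlap, and the log2 fold change was the smallest of the 6, at -0.38 (SE 0.2, edgeR adjusted p = 0.676).

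ATP6, which forms part of the proton path of the synthase, stood at 23990, 19260 and 20890 CPM in the controls and at 18470, 11200 and 16400 with Mn. Here too all 3 Mn-exposed samples were below the lowest control, and the log2 fold change was -0.48 (SE 0.25, edgeR adjusted p = 0.673).

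CYB stood at 19620, 13920 and 15250 CPM in the controls and at 14800, 8774 and 13000 with Mn. Its groups overlapped, since Mn-exposed 13 was above control 2. The log2 fold change was -0.42 (SE 0.26, edgeR adjusted p = 0.697).

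**Figure D1:**
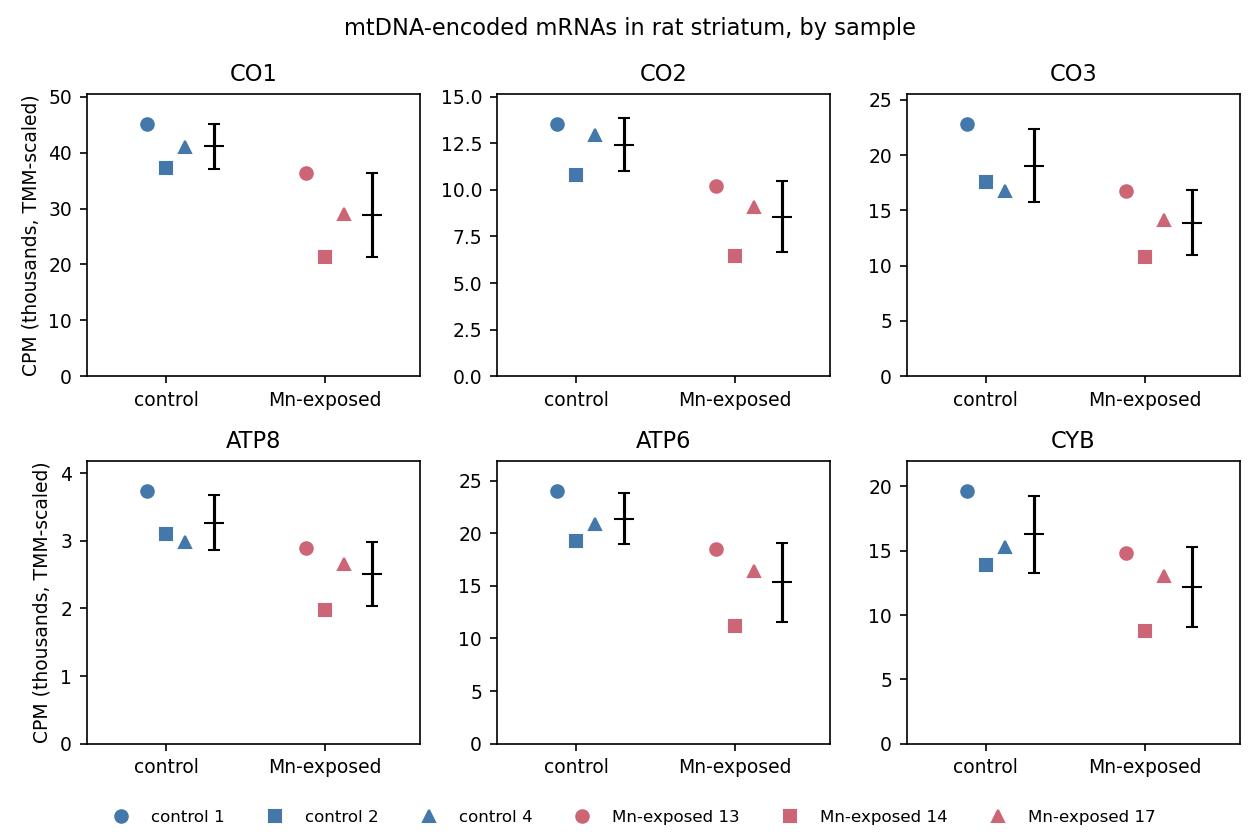
TMM-scaled CPM (divided by 1000, vertical axis from 0) of each of the 6 messages in the 3 control (blue) and 3 Mn-exposed (red) samples, with the mean and SD (n = 3) of each group in black and the symbol marking the sample's ID number. Control 1 is the highest and Mn-exposed 14 the lowest sample in all 6 panels, and only for CYB is an Mn-exposed sample visibly above a control.

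The group means ± SD (n = 3 each) were 41150 ± 3990 CPM (control) and 28910 ± 7490 (Mn-exposed) for CO1, the widest difference in CPM, and 3271 ± 405 and 2506 ± 476 for ATP8, the narrowest. The coefficient of variation ran from 9.7% (CO1) to 18.3% (CYB) among controls and from 19% (ATP8) to 25.9% (CO1) among Mn-exposed samples, so relative to their mean the Mn-exposed samples varied more than the controls for each of the 6.

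Of the 6 messages, 0 passed edgeR's test at an adjusted p of 0.05, as did 0.0% of all genes tested, and 0 had an unadjusted edgeR p under 0.05, against 7.47% of all genes (3.21% lower in Mn-exposed samples). DESeq2 gave 5 of the 6 an unadjusted p under 0.05, with CYB the exception. It did so for 6.4% of its 22856 genes, which were not filtered, and for 1373 of the 15252 genes tested by edgeR. In limma-voom 1 message, CO2, had an unadjusted p under 0.05 (7.25% of all genes). At an adjusted p DESeq2 called 0 of the 6 (0.403% of its 22856 genes), its adjusted p running from 0.328 (CO2) to 0.646 (CYB). With the ID number of the labels as a block, 4 of the 6 (CO1, CO2, CO3 and ATP6) had an unadjusted edgeR p under 0.05, but 13.9% of all genes did so in that fit, and the smallest adjusted p of the 6 was 0.302 (CO2). Within these pairs of equal ID number (control 1 with Mn-exposed 13, 2 with 14 and 4 with 17) the Mn-exposed sample had the lower CPM in 3 of 3 pairs for each of the 6 messages, CYB included. For the 5 messages whose groups did not overlap any pairing would give this. The share of all genes with such pairs was not computed, and the labels do not say what the ID number marks.

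In TMM-scaled CPM, 5 of the 6 messages had groups that did not overlap, with the Mn-exposed samples lower, against 5.48% of all genes. The 5 include CO3, whose gap of 0.109% was within counting error (SD 0.228%). By library size alone the groups did not overlap for 2 of the 6, CO2 and ATP6 (2.71% of all genes). Scaling without mtDNA features gave the same 5 of 6 (5.51% of all genes). The messages come from the same libraries and followed each other closely, so these counts are not those of 6 independent genes.

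The median log2 fold change of the 6 was -0.47, with all 6 negative, where the median of all genes tested was 0.02 and 47.4% were negative. The 7 other mtDNA features over 200 bases, which encode subunits of complex I, had a median of -0.38 (-0.44 to -0.37), again all negative. The estimate for the 6 rested much on 1 library: the median was -0.29 without Mn-exposed 14. Bulk counts cannot tell fewer cells of a type from less RNA per cell, and the amount of mtDNA was not measured.

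**Figure D2:**
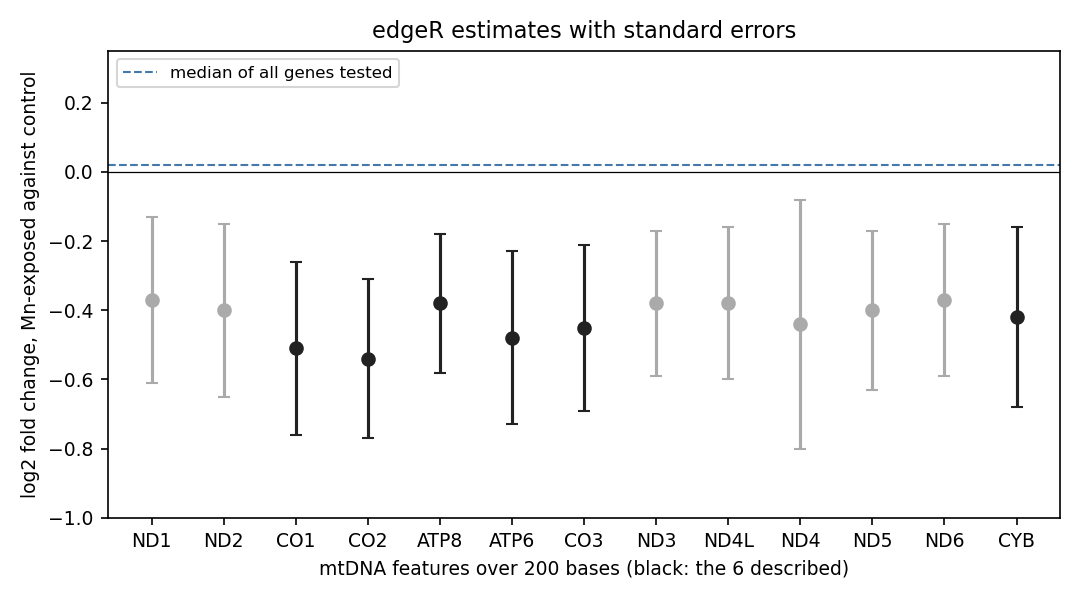
edgeR log2 fold change of Mn-exposed against control (vertical axis, points with standard errors as bars) for the 13 mtDNA features over 200 bases in order of position, the 6 described here in black and the complex I genes in grey. All 13 estimates lie between -0.54 and -0.37, below the dashed median of all genes (0.02), and their standard errors overlap one another.

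The 6 messages moved as a block from library to library. Set against the mean of the controls on the log2 CPM scale, they stood 0.13 to 0.29 higher in control 1, and 0.72 to 0.94 lower in Mn-exposed 14 (-0.94 to -0.72). In Mn-exposed 13 the range was -0.28 to -0.12, close to control 2 (-0.21 to -0.07), and in Mn-exposed 17 it was -0.5 to -0.29. Within a library the 6 thus differed by at most 0.24 (control 4), a smaller range than that between the 2 outermost libraries for any of the messages. Over the 6 libraries the Pearson correlation of log2 CPM was 0.929 to 0.992 for the 15 pairs of messages, a description in which all values of a library share its depth and scaling. The sum of the 6 correlated with the complex I features at 0.724 (ND4) to 0.986 (ND3).

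**Figure D3:**
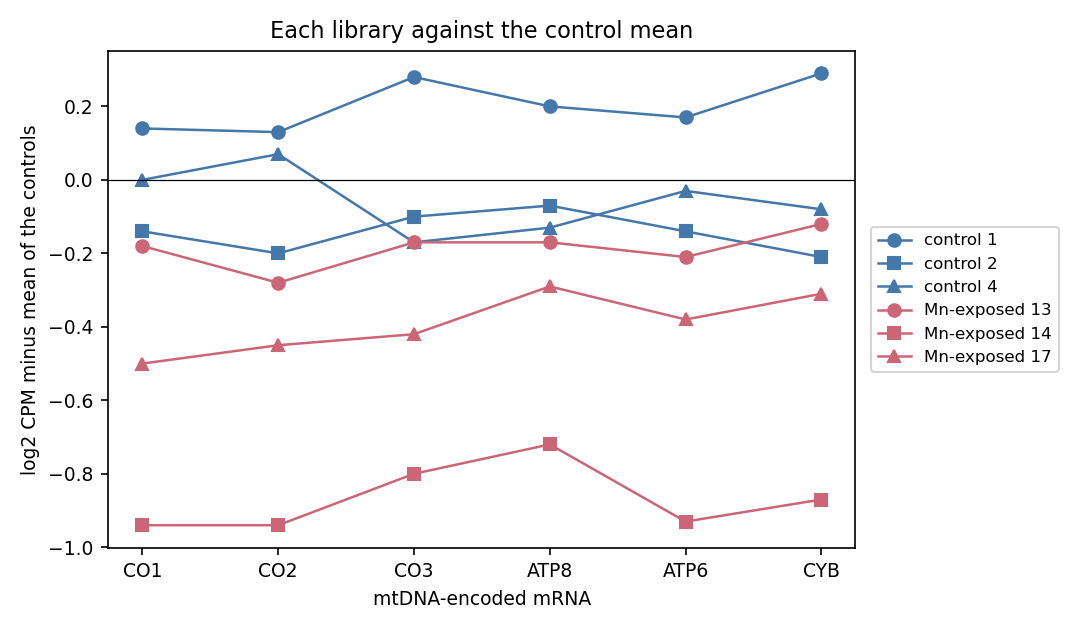
Log2 CPM of each message minus the mean of the 3 controls (vertical axis), with 1 line per library joining its 6 values. The lines run nearly level: control 1 stays above 0, Mn-exposed 14 lies between -0.94 and -0.72, and Mn-exposed 13 lies near control 2. Mn-exposed 13 meets control 4 at CO3 and is furthest below it at CO2 (-0.28 against 0.07).

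Other features of the libraries went with these levels at the extremes, but not throughout. Control 1, highest in all 6 messages, had the lowest value on the first component, and Mn-exposed 14, lowest in all 6, had the highest. Genes that span at least 100000 bases stood, relative to those under 10000 bases, 0.16 log2 units below their mean over the libraries in control 1 (-0.16) and 0.15 above it in Mn-exposed 14, with -0.11 in Mn-exposed 13 and -0.02 to 0.07 in the 3 remaining libraries. Mn-exposed 13 was near control 1 on both features (-22.6 and -24 on the first component). Its messages, however, stood at -0.28 to -0.12 from the control mean, against 0.13 to 0.29 in control 1. The part of these library differences in the lower mtDNA levels was not tested.

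By complex, every Mn-exposed sample had a lower share of all counts than every control for the oxidase and for the synthase, while the groups overlapped for CYB. Taken singly on this scale, only CO2 and ATP6 were parted in this way, while CO1, CO3 and ATP8 overlapped. A parting with Mn lower was also found by library size in 2.71% of single genes. The 3 oxidase messages held 7.819%, 6.398% and 6.761% of all counts in the controls (1, 2, 4) and 6.365%, 4.026% and 5.55% with Mn (13, 14, 17). The groups nearly touched: the 95% exact binomial interval (Clopper-Pearson) ran from 6.3901% to 6.4069% in control 2 and from 6.3543% to 6.3748% in Mn-exposed 13. The difference of means was -1.68 percentage points (two-sided exact permutation p = 0.1, n = 3 each), the smallest p that 3 samples against 3 allow.

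ATP8 and ATP6 together held 2.659%, 2.182% and 2.28% of counts in controls and 2.149%, 1.375% and 2.022% in Mn-exposed samples, a difference of -0.525 points (exact permutation p = 0.1, n = 3 each). CYB held 1.882%, 1.359% and 1.456% in controls and 1.489%, 0.9156% and 1.38% in Mn-exposed samples, and both Mn-exposed 13 and 17 were above control 2 (difference -0.304 points, exact permutation p = 0.5). The 6 messages summed to 10.93% ± 1.27 of counts in controls and 8.424% ± 1.9 with Mn (SD, n = 3 each), and the groups overlapped (difference -2.51 points, exact permutation p = 0.2). Without Mn-exposed 14 that difference was -1.46 points. Adjusted over the 5 shares of all counts tested, which include the complex I features, the p-values were 0.25 to 0.5. The intervals cover counting error only.

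Within the mtDNA counts no complex had a share that differed between the groups by more than the spread of the samples. The oxidase messages made up 47.13%, 45.87% and 48.66% of mtDNA counts in controls and 46.27%, 46.61% and 44.73% in Mn-exposed samples. Control 4 was the highest and Mn-exposed 17 the lowest, and the groups overlapped (47.22% ± 1.39 against 45.87% ± 0.997, exact permutation p = 0.3, n = 3 each). ATP8 and ATP6 made up 16.02% ± 0.381 in controls and 15.94% ± 0.337 in Mn-exposed samples (exact permutation p = 0.7), and the sign of that difference turned when counts were taken per base. CYB made up 11.34%, 9.742% and 10.48% in controls and 10.82%, 10.6% and 11.12% in Mn-exposed samples, where control 1 and 2 enclosed all 4 other libraries (exact permutation p = 0.6).

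**Figure D4:**
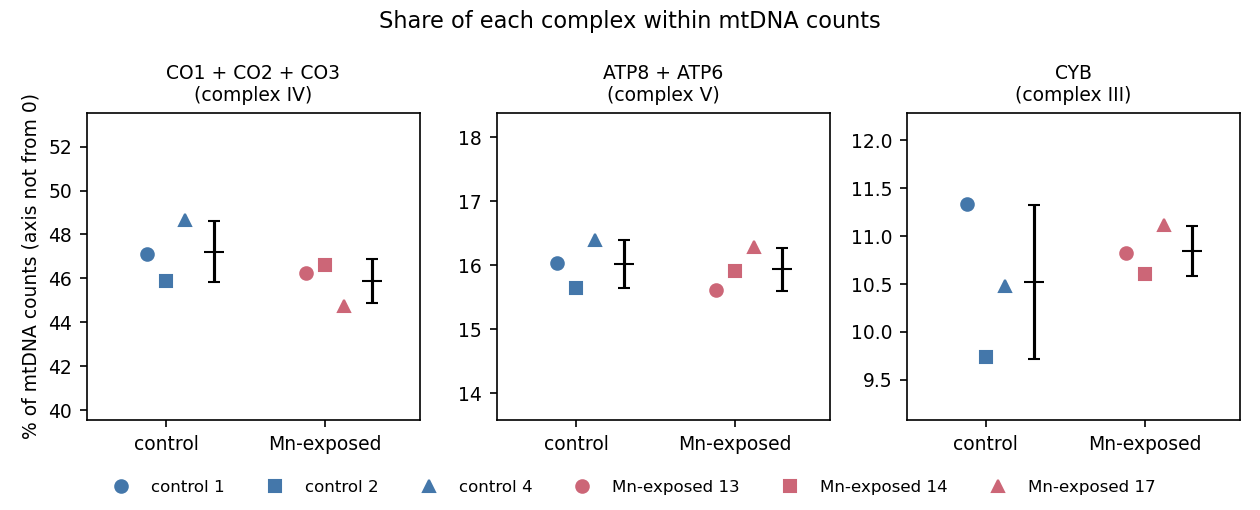
Share of mtDNA counts (percent, axes that do not start at 0 and span 15% either side of the mean) taken by the oxidase messages, the synthase messages and CYB in each sample, with group mean and SD (n = 3) in black. The groups overlap in all 3 panels, and control 1 (11.34%) and control 2 (9.742%) are the extremes for CYB.

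Of the single messages, CO1 took 26.79% ± 1.25 of mtDNA counts in controls and 25.73% ± 0.852 in Mn-exposed samples, and CO2 took 8.098% ± 0.707 and 7.667% ± 0.183. ATP8 took 2.125% ± 0.0652 in controls and 2.256% ± 0.135 with Mn. Mn-exposed 14 (2.384%) and 17 (2.269%) were above all controls and Mn-exposed 13 (2.114%) was among them. Over 10 shares tested (the 6 messages, 2 complexes, all 6 together and the complex I features together) the raw exact permutation p was 0.3 to 1 and the adjusted p 0.778 to 1. Of the 13 longer features, 0 (0.0%) had shares of mtDNA counts whose groups did not overlap.

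The 6 messages together made up 73.76% ± 2.23 of mtDNA counts in controls and 72.66% ± 0.486 in Mn-exposed samples (exact permutation p = 0.5, n = 3 each), against 26.03% ± 2.26 and 27.15% ± 0.492 for the complex I features. The controls, from 71.26% (control 2) to 75.54% (control 4), enclosed all 3 Mn-exposed samples. The more negative median fold change of the 6 than of the complex I features was therefore not larger than the spread between controls.

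Per base, 5 of the 6 messages took the first 5 places among the 13 longer mtDNA features, and CYB took place 6 or 8. The 6 messages hold 44.2% of the summed length of the 13 longer features and 71.4% to 75.7% of their counts. ND4, with 1378 bases, adds to this contrast, since it was the lowest of the 13 per base (0.677 ± 0.225 CPM per base in controls). The cause of its low level was not tested. In controls the level was 31.4 ± 3.54 CPM per base for ATP6, 26.6 ± 2.58 for CO1, 24.3 ± 4.21 for CO3, 18.2 ± 2.1 for CO2, 16 ± 1.99 for ATP8 and 14.2 ± 2.61 for CYB (SD, n = 3). In Mn-exposed samples it was 22.5 ± 5.49 for ATP6, 18.7 ± 4.85 for CO1, 17.7 ± 3.8 for CO3, 12.5 ± 2.82 for CO2, 12.3 ± 2.33 for ATP8 and 10.7 ± 2.71 for CYB. Among the controls CO3 and CO2 did not overlap and the other neighbours in this order did, and among the Mn-exposed samples all neighbours overlapped. Within a library the order was nearly fixed: ATP6, CO1 and CO3 took the first 3 places in all 6 libraries, CO2 was above ATP8 in 5 of 6 (not in Mn-exposed 14), and CYB was last of the 6 in all. Among all 13 longer features CYB took place 6 in 5 libraries and place 8 in control 2, where ND1 and ND2 were above it. The 5 messages of the CO1 to CO3 stretch were above all 7 complex I features in every library.

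**Figure D5:**
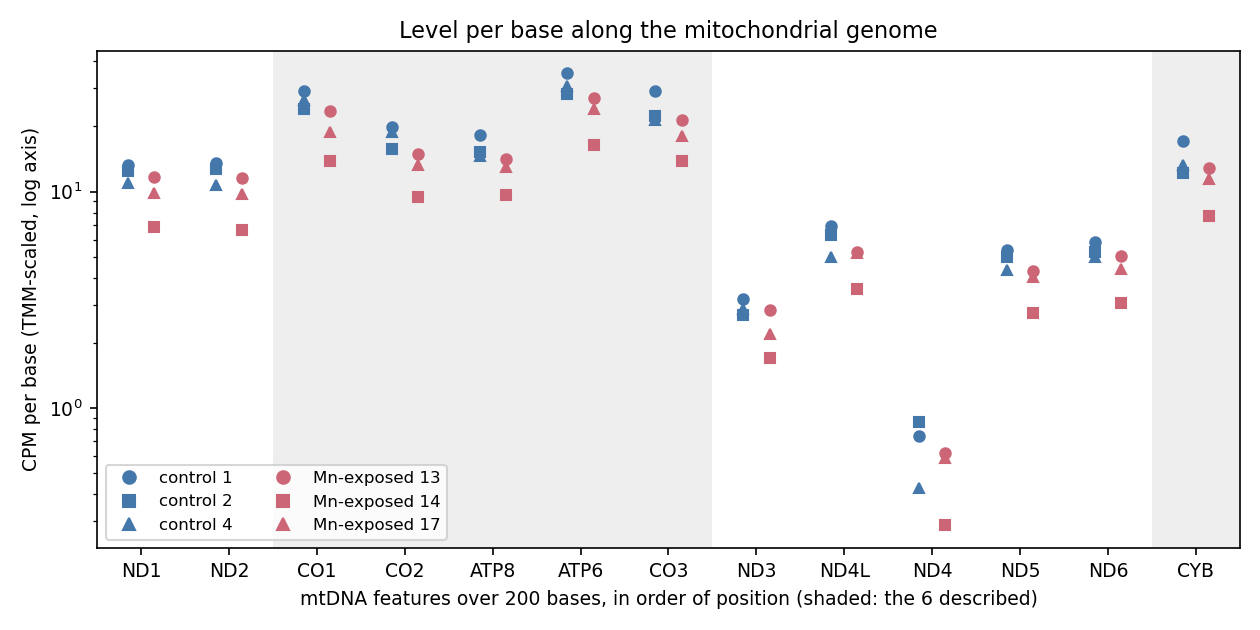
CPM per base (log axis) of the 13 mtDNA features over 200 bases in order of position, with 1 point per library and the 6 messages described here shaded. The stretch from CO1 to CO3 stands above the complex I features on both sides, and CYB, at the right, is near ND1 and ND2.

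Ratios between messages, which do not depend on library scaling, overlapped between the groups in all 9 cases tested. CO2 per base was 0.682 ± 0.0279 of CO1 in controls and 0.674 ± 0.0366 with Mn (SD, n = 3 each). CO3 was 0.996, 0.93 and 0.804 of CO1 in the controls (1, 2, 4) and 0.909, 0.998 and 0.959 with Mn (13, 14, 17), and control 4 was the low one. CYB was 0.532 ± 0.0482 of CO1 in controls and 0.57 ± 0.0299 in Mn-exposed samples. Complex V per base was 1.16 ± 0.00685 of complex IV in controls, the most even ratio of all, and 1.15, 1.16 and 1.24 in Mn-exposed 13, 14 and 17, where Mn-exposed 17 stood apart.

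ATP8 and ATP6 lie on 1 messenger RNA, yet ATP8 had only part of the counts per base of ATP6: 0.52, 0.537 and 0.477 in controls and 0.522, 0.588 and 0.54 in Mn-exposed samples. Leaving their 43 shared bases out of both lengths gave 0.607 in controls and 0.653 in Mn-exposed samples. How reads in the shared bases were counted is not given in the sources used here, and its part in the low ATP8 value was not tested. The difference between groups in this ratio, 0.11 on the log2 scale, had the smallest p of the 9 ratios (exact permutation p = 0.2, adjusted over 9 ratios 0.675), and the groups overlapped. The raw exact permutation p of the other ratios ran from 0.3 to 0.8 and the adjusted p up to 0.8, and none of the 9 had groups that did not overlap. With 3 samples a group the test cannot show that ratios are equal.

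Outside mtDNA, the genes with the pattern most like that of the 6 messages were sought among 9682 genes with a mean of at least 10 CPM, by the Pearson correlation of log2 CPM with the summed messages over the 6 libraries. The closest was ENSRNOG00000001652 (chromosome 11, 35646116 to 35749594, minus strand), at 16.6, 12.1 and 13.3 CPM in the controls (1, 2, 4) and 11.9, 6.11 and 9.29 with Mn (13, 14, 17) (r = 0.9996). ENSRNOG00000009982 (chromosome 15, 27875911 to 27883350, plus strand) followed with r = 0.9949, and ENSRNOG00000016281 (chromosome 16, 83522162 to 83632153, plus strand) with r = 0.9934. All 3 were highest in control 1 and lowest in Mn-exposed 14, as their choice by correlation with the messages all but fixed. None passed edgeR's test (adjusted p = 0.665 each). With 6 points and 9682 genes searched, such values describe these libraries only, and 7 genes were above 0.99.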

How the data were processed

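Poly(A)-selected RNA of 6 striatum samples was measured. Per the labels' protocols, RNA came from RNeasy Plus Mini columns and libraries from the NEBNext Ultra RNA kit. The authors deposited whole-number read counts per Ensembl gene, not normalised, with exon positions and lengths per the file headers. Among the tools listed in the submitters' processing notes are STAR 2.5.2b and bcl2fastq 2.17, with the build Rnor_6.0. Not given in the sources used here are the counting tool, its use of strand, and what it did with bases shared by 2 genes or with reads that match nuclear copies of mtDNA.

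The genes described and the lists were chosen with earlier results of these data known. None of the 32552 IDs matched the RefSeq table on GRCr8 (0 matched), so lists by symbol (nuclear subunits of the 3 complexes, mtDNA transcription and RNA handling, oxidase assembly, cell type markers) were not analysed here, and the tissue label was not checked against markers. The genes named were the 6, any complex I feature on which a result turned, and the 3 best correlated genes outside mtDNA.

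Counts were filtered with filterByExpr (15252 genes), TMM-scaled and tested with edgeR 4.0.16 (quasi-likelihood, robust, no block) in R 4.3.3. Shares and log2 ratios were tested by exact permutation (two-sided) in Python 3.11.15. The SE is the log2 fold change over the square root of F. Alternatives were other scalings and filters, DESeq2 1.42.0, limma-voom (limma 3.58.1), other denominators, the ID number as a block and each sample left out. In simulated counts of the 15252 genes with 200 changed 2-fold, edgeR recovered 34%, with 15 false calls, and DESeq2 63%, with 61. With nothing changed, edgeR called 0 genes and DESeq2 15.

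The ID numbers pair control 1 with Mn-exposed 13, 2 with 14 and 4 with 17. Deviations from group means correlated at 0.417, 0.109 and 0.227 in these pairs, all above the 0.1 set for a block. The main fit nevertheless had no block, and the fit with the block is given as an alternative. Unmatched samples also passed 0.1: control 2 with Mn-exposed 17 (0.274, above its own partner) and control 4 with Mn-exposed 14 (0.145). The labels state no shared litter or day, and the block thus rests on the same data.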

Additional observations from a re-analysis of the deposited data

How the results depend on the processing

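The log2 fold changes of the 6 messages were negative under all 14 alternatives, and none passed an adjusted p of 0.05. Their median, -0.47, ran from -0.62 to -0.29 with 1 sample left out. It was -0.36 by library size alone, where the median of all genes moved from 0.02 to 0.12. With the replicate block it was -0.48, and the block changed no call at an adjusted p. The count of genes called was 0 with edgeR and 92 with DESeq2, and 0 under the 13 other alternatives. At an unadjusted p it was 1139, 2115 with the replicate block, and 576 to 2351 with 1 sample left out. Without Mn-exposed 13, 2 of the 6 messages (CO1 and CO2) had an unadjusted edgeR p under 0.05. In that same fit 2351 genes did so, against 1139 in the main fit, so the rise was not particular to the messages.

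The difference in the share of the 6 messages in all counts, -2.51 points, ran from -3.3 to -1.46 with 1 sample left out. That of the oxidase messages within mtDNA counts, -1.35 points, kept its sign (-2.02 to -0.63). That of the synthase messages, -0.0803, was 0.0855 per base and -0.271 to 0.11 with 1 sample left out. That of CYB, 0.327, ran from -0.0622 to 0.737. With 1 sample left out the log2 ratio differences ran from -0.05 to 0.03 for CO2 to CO1, -0.01 to 0.14 for CO3 to CO1, -0.01 to 0.07 for ATP6 to CO1 and -0.09 to 0.03 for ATP6 to CO3. The cause of these turns was not tested. Every message had at least 51668 counts in each library, so counting error is small beside the spread between samples.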
